A study of Mus musculus with 48 samples.

Results

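The Zfp genes examined here are the protein-coding mouse genes named Zfp and a number, most of which encode zinc-finger proteins that bind DNA or RNA. Members were taken by symbol, without Zfp36, Zfp36l1 and Zfp36l2, whose fingers are of another kind, and had a mean of at least 5 CPM (counts of the gene per 1000000 counts of the library) over the 12 libraries. This gave 234 members of 391 listed protein-coding Zfp genes and of 50600 genes listed in all. The rule used the symbol and the mean level, so levels are given as a description, and it did not use the changes with treatment or fraction. The group of genes itself was, however, chosen with earlier results of these data known. Its changes are therefore given as counts and medians, and the list was not tested as a set. All 234 members passed the filter on low counts. The members with means just above the limit were Zfp870 at 5.42 CPM, Zfp119b at 5.19 CPM and Zfp296 at 5.03 CPM, and the genes just below it were Zfp202 at 4.91 CPM, Zfp738 at 4.65 CPM and Zfp579 at 4.57 CPM.

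A classical zinc finger is a short fold of protein in which 2 cysteines and 2 histidines hold a zinc ion, and arrays of such fingers read DNA sequence. A large share of the mouse genes of this kind also carry a KRAB box, a domain that recruits the corepressor Trim28 (KAP1). Trim28 in turn brings the histone methyltransferase Setdb1 and HP1 proteins to the bound DNA, and this system is best known for silencing retrotransposons and for keeping imprinted regions methylated. KRAB zinc-finger genes lie in clusters of related copies that arose by duplication. Members without the box include regulators of promoters, chromatin cofactors and some proteins that act on RNA or on ribosomes.

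The RNA came from the cell line mPDAC, derived from pancreatic ductal adenocarcinoma of the mouse, whose labels give the background FVB/N x C57BL6 and an age of 8 weeks. NT cultures were not treated, and N6L cultures received N6L, a pseudopeptide antagonist of the RNA-binding protein nucleolin, at 50 µM for 48 h. Each of 3 cultures per treatment (NT 1, 2 and 4; N6L 1, 2 and 3) gave a cytoplasmic library, which measures mRNA in a lysate cleared of nuclei and mitochondria, and a polysomal library, which measures the mRNA in the polysome fractions of a sucrose gradient run from the same lysate. The cultures are of 1 cell line, so p-values measure the spread between cultures of that line. Library totals ranged from 19519911 to 44972333 counts. Of 10 duct markers, 8 had at least 5 CPM, with a summed level between 6565 and 10797 CPM in the 12 libraries, whereas Epcam and Cldn4 were near 0. The 8 fibroblast markers summed to at most 1.49 CPM and the 6 endothelial markers to at most 1.18 CPM. The 8 macrophage markers summed to 56.9 to 122 CPM with 1 gene, Cd14, at or above 5 CPM. The 8 acinar and islet markers summed to 27.6 to 82.7 CPM, with 1 gene at or above 5 CPM and 7 at 0. In RNA from many cells, a change in the number of cells that express a gene and a change in its RNA per cell cannot be told apart.

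Of the 234 members, 116 encoded a KRAB box and 118 did not. A match to the finger pattern was found in 230 members, with a median of 10 fingers and at most 36, and none was found in Zfp703, Zfp330, Zfp707 and Zfp839. The coding sequence taken for Zfp707 has 1172 bases, which is not a whole number of codons, so its reading frame is uncertain. The lack of fingers and of a KRAB box is therefore uncertain for Zfp707, which is counted here among the members without the box. The KRAB members had a median of 11.5 fingers against 7 in the others. They also differed in base composition: G and C made up a median of 42.7% of the longest transcript of KRAB members, 50.4% of that of members without the box and 49.8% of that of all genes tested. At the last position of codons the medians were 43.7% with the box and 59.5% without it. The fingers themselves differ in composition between members. One finger of each of 7 members described below follows, the first in the protein that fits the classical spacing and linker, to show the same fold written in different codons. The stretches are from GRCm38, lie within 1 coding exon each, read 5′ to 3′ in the sense of the gene, and have the codons of the 2 cysteines and 2 histidines in capitals.
Zfp52, chr17:21560453-21560536, plus strand: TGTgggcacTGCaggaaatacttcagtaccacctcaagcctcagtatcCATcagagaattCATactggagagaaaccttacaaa
Zfp715, chr7:43299128-43299211, minus strand: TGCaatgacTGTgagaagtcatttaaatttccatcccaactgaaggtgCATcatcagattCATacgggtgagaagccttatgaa
Zfp869, chr8:69707295-69707378, minus strand: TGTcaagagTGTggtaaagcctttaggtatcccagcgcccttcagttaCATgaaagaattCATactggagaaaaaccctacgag
Zfp62, chr11:49215543-49215626, plus strand: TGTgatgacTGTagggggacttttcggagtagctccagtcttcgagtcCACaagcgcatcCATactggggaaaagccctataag
Zfp689, chr7:127444755-127444838, minus strand: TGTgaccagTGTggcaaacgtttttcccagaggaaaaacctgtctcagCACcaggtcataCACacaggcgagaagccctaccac
Zfp444, chr7:6189546-6189629, plus strand: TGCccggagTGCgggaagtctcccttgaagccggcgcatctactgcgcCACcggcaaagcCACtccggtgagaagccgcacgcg
Zfp771, chr7:127253856-127253939, plus strand: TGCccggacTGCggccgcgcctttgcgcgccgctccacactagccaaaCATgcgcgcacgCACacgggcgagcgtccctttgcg
All 7 stretches hold 84 bases and the same spacing of zinc-binding codons. G and C made up 44.0%, 40.5% and 44.0% of the finger shown of the KRAB members Zfp52, Zfp715 and Zfp869, against 36.5%, 42.02% and 41.9% of all fingers of each gene. The values were 67.9% and 71.4% in the fingers shown of Zfp444 and Zfp771, without the box, and 65.5% and 70.8% in all their fingers. In the other two a single finger does not stand for the gene. The finger shown had 51.2% in Zfp62, without the box, and 52.4% in the KRAB member Zfp689, whereas all fingers had 40.7% in Zfp62 and 61.7% in Zfp689.

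The members were expressed at low levels. The mean level had a median of 20.2 CPM and ran from 5.03 to 431 CPM, against a median of 45.3 CPM for the 9724 protein-coding genes at or above the same limit. The medians were 11.2 CPM for KRAB members and 36.4 CPM for those without the box. Per kilobase of the longest transcript, the highest mean levels were those of Zfp706 with 97.9 CPM per kb, Zfp637 with 56.8, Zfp598 with 55.8, Zfp703 with 51.9 and Zfp64 with 47.7 CPM per kb. Zfp598 is a ubiquitin ligase that marks collided ribosomes, and Zfp703 is a transcriptional corepressor. Together the members took at most 1.01% of a library. In the cytoplasm their counts made up 0.751%, 0.770% and 0.610% of the counts in NT cultures 1, 2 and 4, and 0.902%, 1.01% and 0.955% in N6L cultures 1, 2 and 3. The groups did not overlap. In polysomes the shares were 0.643%, 0.665% and 0.584% in NT cultures and 0.741%, 0.753% and 0.641% in N6L cultures, and these ranges overlapped.

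**Figure D1:**
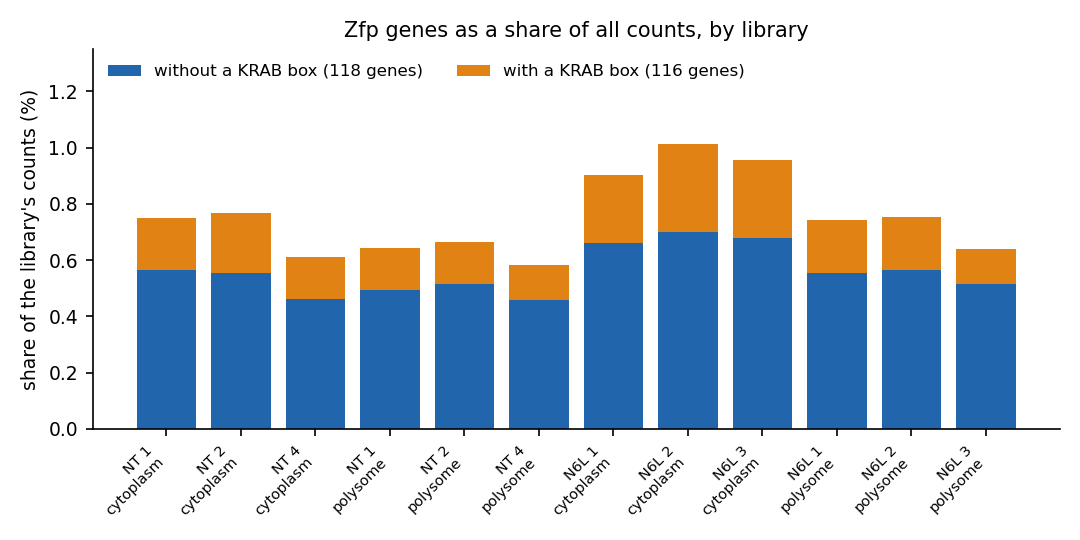
Share of each library's counts (%, vertical axis) taken by the 234 Zfp genes in the 12 libraries, with members without a KRAB box (118 genes, lower part of a bar) and with one (116 genes, upper part). The 3 N6L cytoplasmic libraries, at 0.902% to 1.01%, lie above the 3 NT cytoplasmic libraries, at 0.610% to 0.770%, whereas the polysomal ranges overlap.

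The first comparison asked how the cytoplasmic mRNA of these genes differed after N6L. In the cytoplasm 65 of 234 members rose (27.8%) and 7 fell (2.99%) at a false discovery rate (FDR) under 0.05, while of all 13889 genes tested 14.5% rose and 13.8% fell. The tests were edgeR quasi-likelihood tests on counts, adjusted over all genes tested. The median log2 fold change was 0.44 for members and 0.04 for all genes. Among KRAB members 37 of 116 rose and 0 fell (edgeR; 0 were lower at an unadjusted p under 0.05, and DESeq2 called 0 lower), with a median of 0.52, and among members without the box 28 of 118 rose and 7 fell, with a median of 0.31. Relative to the mean of the NT cytoplasm, the median member stood at 0.07, 0.14 and -0.23 (log2) in NT cultures 1, 2 and 4 and at 0.30, 0.56 and 0.43 in N6L cultures 1, 2 and 3. With library size alone as the scale, the median of all genes moved from 0.04 to 0.19 and that of members from 0.44 to 0.57. KRAB members were called lower in 3 other fits. They were 1 of 12 decreases when each library was corrected for transcript length and GC content by an offset, 5 of 20 (with 61 members higher) when the culture number was also a block, and 2 of 14 with only the cytoplasmic libraries in the fit. The number of calls depended on single cultures: 34 rose and 4 fell without NT culture 1, 14 and 3 without NT culture 4, and 8 and 1 without N6L culture 2. Without NT culture 1, 14.5% of members rose against 7.49% of all genes, and 1.71% fell against 8.51%. Without NT culture 4 these shares were 5.98% against 6.97% and 1.28% against 8.52%. Without N6L culture 2 they were 3.42% against 4.02% and 0.427% against 5.22%. In the last pair of fits members thus rose no more often than all genes.

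Among the increases, Zfp955a (ENSMUSG00000094441; chr17:33239718-33255145, minus strand), a KRAB member, had 4.15, 8.03 and 2.75 CPM in NT cultures 1, 2 and 4 and 16.7, 36.8 and 30.4 CPM in N6L cultures 1, 2 and 3, the order kept throughout. All N6L values lay above all NT values, with log2 2.49 ± 0.42 (SE), FDR 0.00199, but 52.0% of the 50-base stretches of its longest transcript also occur in other genes, so its counts are uncertain. Zfp871 (ENSMUSG00000024298; chr17:32765496-32788287, minus strand) had 4.73, 4.95 and 3.505 CPM in NT and 18.7, 23.9 and 19.4 CPM in N6L cultures, with log2 2.23 ± 0.36 (SE), FDR 0.00174. Each N6L value of Zfp871 was over 3 times the highest NT value. Zfp869 (ENSMUSG00000054648; chr8:69706332-69710724, minus strand) had 14.8, 24.4 and 10.6 against 41.8, 48.5 and 49.4 CPM, with log2 1.49 ± 0.31 (SE), FDR 0.00472. Zfp715 (ENSMUSG00000012640; chr7:43296197-43313294, minus strand) had 14.3, 17.3 and 9.01 against 30.1, 41.0 and 35.0 CPM, with log2 1.38 ± 0.28 (SE), FDR 0.00470. The GC-poor fingers of both genes are shown above. Genes named as the largest changes of a comparison were chosen among those whose groups did not overlap, so the lack of overlap is not a result. Zfp526 (ENSMUSG00000046541; chr7:25221425-25227507, plus strand), without a KRAB box, had 6.56, 8.08 and 3.81 against 17.6, 13.5 and 15.7 CPM, with log2 1.34 ± 0.26 (SE), FDR 0.00383. These 5 genes, with Zfp395, Zfp292 and Zfp704, are the 8 increases that were also called without each culture in turn.

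In the fit over all 12 libraries the 7 decreases were in members without a KRAB box. Zfp428 (ENSMUSG00000064264; chr7:24507006-24515682, plus strand) had 22.0, 17.8 and 34.6 CPM in NT and 10.1, 8.58 and 10.2 CPM in N6L cultures, with log2 -1.36 ± 0.34 (SE), FDR 0.0106. Zfp771 (ENSMUSG00000054716; chr7:127244274-127254803, plus strand), whose GC-rich finger is shown above, had 37.4, 22.9 and 42.4 against 11.6, 13.9 and 15.5 CPM, with log2 -1.32 ± 0.34 (SE), FDR 0.0136. The NT and N6L values of both genes did not overlap, as the choice of named genes required. Zfp524 had 7.72, 10.7 and 13.8 against 5.69, 5.53 and 5.72 CPM, with log2 -0.92 ± 0.29 (SE), FDR 0.0303. Zfp593, the mouse counterpart of a yeast factor that travels with the precursor of the large ribosomal subunit, had 64.8, 65.0 and 95.3 against 38.6, 39.8 and 44.6 CPM, with log2 -0.87 ± 0.28 (SE), FDR 0.0314. The counts of both are uncertain, since 46.0% of the stretches of Zfp524 occur in other genes and 77.9% of the exonic bases of Zfp593 overlap exons of other genes. Zfp692 (ENSMUSG00000037243; chr11:58307069-58314627, plus strand) had 27.0, 29.9 and 30.4 against 16.4, 16.9 and 19.95 CPM, with log2 -0.71 ± 0.16 (SE), FDR 0.00684, and was the 1 decrease called without each culture in turn. Without N6L culture 2, the adjusted p of Zfp428 and of Zfp771 was above the limit. For Zfp524 this was so without any of 4 cultures (NT 2 and 4, N6L 1 and 2) and for Zfp593 without any of 5 (all but N6L 3).

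**Figure D2:**
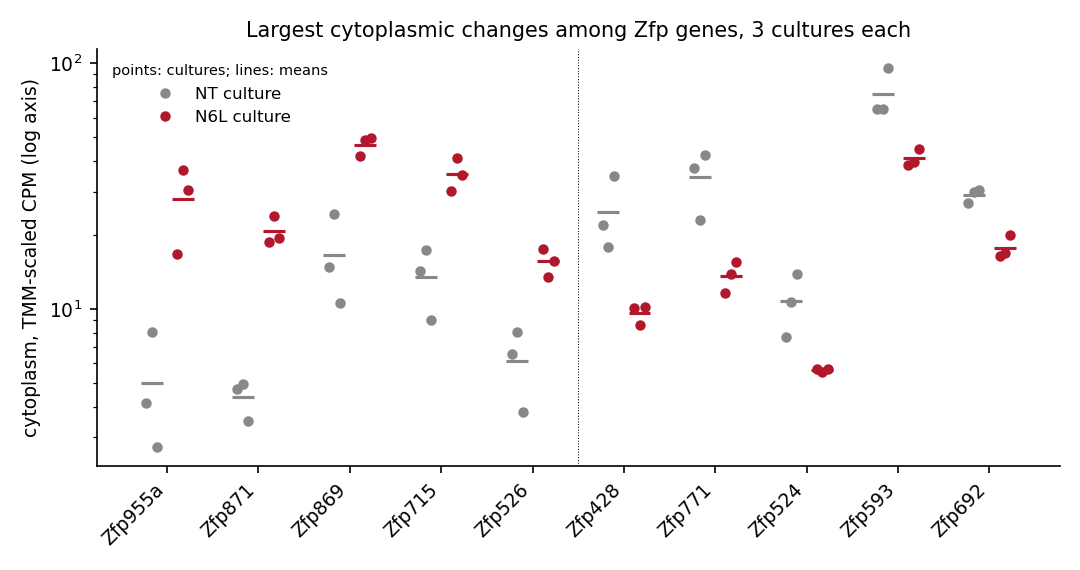
Cytoplasmic level (TMM-scaled CPM, log axis) of the 5 largest increases and the 5 largest decreases among members called after N6L, with the genes along the horizontal axis; points are cultures, grey for NT and red for N6L, and lines are means of 3. The 10 genes were chosen among called members whose groups do not overlap, and they run from Zfp955a at log2 2.49 ± 0.42 to Zfp428 at log2 -1.36 ± 0.34.

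In polysomes the test called 7 members after N6L, against 72 in the cytoplasm. Counts are scaled within each library, so a gene that rose did so relative to the other mRNAs in polysomes. The study reported that the polysome peaks fell strongly after N6L, and scaled counts cannot show such a loss. All 7 rose (2.99% of members) and 0 fell (edgeR; 2 were lower at an unadjusted p under 0.05, and DESeq2 called 12 higher and 0 lower), against 6.01% and 3.66% of all genes, and the median log2 fold change was 0.15 for members and 0.00 for all genes. The 7 were Zfp395, Zfp574, Zfp689, Zfp747, Zfp672, Zfp30 and Zfp784, of which 3 carry a KRAB box. Zfp689 (ENSMUSG00000048921; chr7:127442136-127449158, minus strand) had 15.97, 20.1 and 16.7 CPM in NT polysomes and 22.4, 26.1 and 37.3 CPM in N6L polysomes, with log2 0.70 ± 0.19 (SE), FDR 0.0350. Zfp395, a DNA-binding regulator without the box, had 44.1, 56.3 and 44.9 against 72.5, 77.0 and 92.1 CPM, with log2 0.73 ± 0.15 (SE), FDR 0.0117. The groups did not overlap in either gene, as their choice required. Zfp747 had 9.97, 15.9 and 9.22 against 20.5, 20.5 and 19.3 CPM, with log2 0.78 ± 0.22 (SE), FDR 0.0384, and Zfp30 had 5.78, 5.11 and 3.52 against 7.79, 8.09 and 8.63 CPM, with log2 0.77 ± 0.22 (SE), FDR 0.0423. Zfp784 had 3.61, 4.55 and 4.70 against 5.62, 7.53 and 12.3 CPM, with log2 0.97 ± 0.25 (SE), FDR 0.0283, though 94.8% of its exonic bases overlap other genes, and 36.9% of the 50-base stretches of Zfp747 occur in other genes. With the length and GC offset 18 members rose (7.69%) and 3 fell (1.28%), against 8.83% and 11.2% of all genes, and with the replicate block as well 17 rose (7.26%) and 9 fell (3.85%), against 8.96% and 11.99%. Single cultures decided the calls: 0 rose without NT culture 1 or without N6L culture 2, 2 (0.855%) without NT culture 4 and 4 (1.71%) without NT culture 2. Of all genes 1.11%, 0.92%, 3.39% and 4.12% rose in these fits, in the same order. Without N6L culture 3, 10 members rose (4.27%) and 1 fell (0.427%), against 4.86% and 2.91% of all genes. With only the polysomal libraries in the fit 0 members were called, while 1.93% of all genes rose and 0.524% fell. Leaving out N6L culture 2 moved the median to 0.08, and leaving out N6L culture 3 moved it to 0.24. Relative to the NT mean, the median member stood at 0.27 and 0.28 in the polysomes of N6L cultures 1 and 2 and at -0.12 in those of N6L culture 3.

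**Figure D3:**
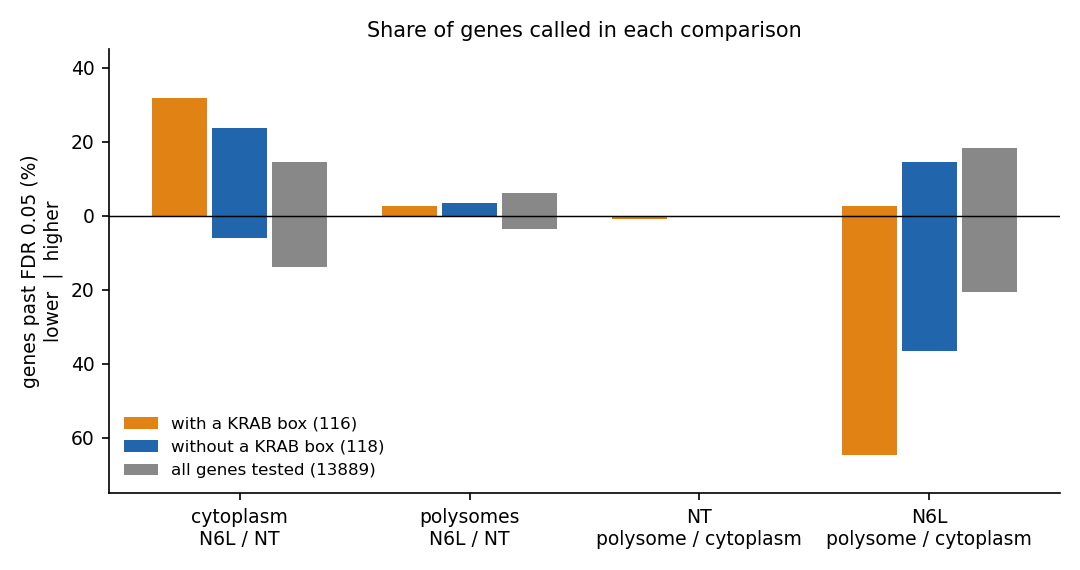
Percentage of genes past an FDR of 0.05 (higher above the zero line, lower below it) in 4 comparisons, for members with a KRAB box (116), members without one (118) and all 13889 genes tested. In N6L cultures, 64.7% of KRAB members and 36.4% of those without the box were lower in polysomes than in cytoplasm, against 20.6% of all genes.

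The next comparisons set the polysomal library of each culture against the cytoplasmic one. This shows how the share of an mRNA found in polysomes differs between genes, relative to the other mRNAs and not as an absolute amount. In NT cultures the median log2 difference was -0.18 for members, -0.39 with a KRAB box, -0.04 without it and 0.03 for all genes. Without NT culture 1 the median without the box was 0.05, and without NT culture 2 that with the box was -0.24. The test called 0 members higher (edgeR, and 0 by DESeq2) and 1 lower, against 0.209% of all genes lower. At an unadjusted p under 0.05 (edgeR) 65 of 234 members were lower and 0 higher, against 1353 and 502 of 13889 genes. Without NT culture 2, 18 members had an unadjusted p under 0.05 in either direction, and the count over all genes in that fit is not given here. In 64 members all 3 polysomal values lay below all 3 cytoplasmic ones, and in 10 all lay above, which is 27.4% and 4.27% of members against 12.8% and 9.59% of all genes. The member called was Zfp101, a KRAB gene (ENSMUSG00000055240; chr17:33360507-33394641, minus strand), with 8.52, 10.4 and 10.5 CPM in cytoplasm and 3.55, 3.47 and 4.91 CPM in polysomes, and log2 -1.29 ± 0.24 (SE), FDR 0.0442. Its adjusted p was above the limit without any 1 of the 5 cultures other than N6L culture 3, and also with RLE size factors, with library size alone and with an offset for transcript length and GC content, and without N6L culture 3 the test called 15 members lower (6.41%), against 2.36% of all genes. With each culture as a block, so that the libraries of a lysate were paired, 6 members were lower (2.56%), against 1.41% of all genes. DESeq2 called 14 (5.98%), against 1.92%.

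In N6L cultures many members were lower in polysomes than in cytoplasm. Of 234 members 118 were lower (50.4%) and 20 higher (8.55%), against 20.6% and 18.4% of all genes, and the median log2 difference was -0.59 for members and 0.03 for all genes. Among KRAB members 75 of 116 were lower and 3 higher, with a median of -0.82, and among members without the box 43 of 118 were lower and 17 higher, with a median of -0.26. The median over members was -0.30, -0.54 and -0.92 in N6L cultures 1, 2 and 3 and -0.23, -0.19 and -0.04 in NT cultures 1, 2 and 4. The N6L cultures all lay below the NT cultures in this measure, N6L culture 1 by little. The medians of all genes in the same cultures lay between -0.02 and 0.06. With library size alone as the scale, the median of all genes moved from 0.03 to -0.11 and that of members to -0.72. Without N6L culture 2, 53 members were lower (22.6%) and 3 higher (1.28%), against 5.66% and 2.56% of all genes. Without N6L culture 3, 57 were lower (24.4%) and 3 higher (1.28%), against 8.64% and 3.09% of all genes. Called without each culture in turn were 50 lower members and 2 higher ones, Zfp444 and Zfp771. The test in N6L cultures shares its cytoplasmic libraries with the cytoplasmic comparison above, so a gene high in them counts as higher there and as lower here.

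The lowest differences were found in genes of several kinds. Zfp292, a large DNA-binding protein without a KRAB box (ENSMUSG00000039967; chr4:34803113-34882960, minus strand), had 43.9, 89.4 and 68.5 CPM in N6L cytoplasm and 19.4, 21.3 and 13.7 CPM in N6L polysomes, with log2 -1.89 ± 0.25 (SE), FDR 0.00427. Zfp638, a nuclear protein that binds cytidine-rich DNA, had 60.4, 133 and 111 against 38.7, 32.8 and 19.4 CPM, with log2 -1.74 ± 0.30 (SE), FDR 0.00427. In both genes the polysomal values all lay below the cytoplasmic ones, as their choice required. Zfp52 (ENSMUSG00000051341; chr17:21535539-21562601, plus strand) had 17.8, 42.6 and 23.5 against 9.84, 10.6 and 5.07 CPM, with log2 -1.72 ± 0.34 (SE), FDR 0.00467, and Zfp62 (ENSMUSG00000046311; chr11:49203292-49218816, plus strand) had 29.2, 55.6 and 46.0 against 15.7, 17.01 and 7.36 CPM, with log2 -1.71 ± 0.29 (SE), FDR 0.00427. Zfp955a had 16.7, 36.8 and 30.4 against 9.81, 9.80 and 3.52 CPM, with log2 -1.86 ± 0.40 (SE), FDR 0.00595 and the uncertain counts named above. In NT cultures the same difference (log2) was -1.06 ± 0.25 for Zfp292, -1.03 ± 0.30 for Zfp638, -1.35 ± 0.34 for Zfp52, -1.20 ± 0.29 for Zfp62 and -0.76 ± 0.43 for Zfp955a, none of them past the limit. All 5 values were negative in both treatments. With the length and GC offset, Zfp638 was not past the limit.

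Of the 20 members higher in N6L polysomes than in N6L cytoplasm, no KRAB box was found in 17, among them Zfp707, whose reading frame is uncertain (above). Zfp771 had 11.6, 13.9 and 15.5 CPM in cytoplasm and 24.3, 32.0 and 60.8 CPM in polysomes, with log2 1.51 ± 0.35 (SE), FDR 0.00686, and Zfp444 (ENSMUSG00000044876; chr7:6172226-6193811, plus strand) had 25.3, 24.9 and 27.7 against 37.2, 43.7 and 79.0 CPM, with log2 1.04 ± 0.23 (SE), FDR 0.00654. Each polysomal value lay above each cytoplasmic one, as the choice of these genes required. Zfp524 had 5.69, 5.53 and 5.72 against 9.33, 11.9 and 19.1 CPM with log2 1.24 ± 0.29 (SE), FDR 0.00710, Zfp428 had 10.1, 8.58 and 10.2 against 13.3, 16.4 and 31.3 CPM with log2 1.08 ± 0.33 (SE), FDR 0.0221, and Zfp593 had 38.6, 39.8 and 44.6 against 56.3, 72.0 and 128 CPM with log2 1.06 ± 0.28 (SE), FDR 0.0110. These 3 did not stay past the limit without N6L culture 3, nor Zfp428 and Zfp593 without N6L culture 2 or with the length and GC offset.

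The difference between polysomes and cytoplasm varied with the base composition of the transcript, and also with its length. When the members were split into 3 groups of 78 by the G and C of their longest transcript, the median log2 difference in N6L cultures was -1.08 in the low group (35.8% to 42.2%), -0.65 in the middle group (42.5% to 49.7%) and 0.13 in the high group (49.8% to 68.7%). In the low group 66 were lower and 0 higher (edgeR; 0 higher at an unadjusted p under 0.05, and 0 by DESeq2), in the middle group 44 were lower and 3 higher, and in the high group 8 were lower and 17 higher. With library size alone as the scale, the median of the high group was -0.01, with 11 higher and 8 lower. The order was also found in NT cultures, with medians of -0.68, -0.20 and 0.14. Without N6L culture 2 the low group had 39 lower, the middle group 13 lower and the high group 3 higher, and without N6L culture 3 these counts were 43, 13 and 3. Of all genes, 5.66% were lower and 2.56% higher without N6L culture 2, and 8.64% and 3.09% without N6L culture 3. Members with and without a KRAB box followed the same order. From the low to the high group the medians were -1.04, -0.73 and 0.12 with the box, and -1.25, -0.48 and 0.13 without it. Of 55 KRAB members in the low group 46 were lower, and of 18 in the high group 0 were lower and 3 higher. Of 23 members without the box in the low group 20 were lower, and of 60 in the high group 8 were lower and 14 higher. Over the 234 members, Spearman's rho between transcript GC and the difference was 0.76 in NT and 0.74 in N6L cultures, against 0.41 and 0.52 over 13867 genes tested with a known transcript. With the G and C of the stretches that encode fingers in place of the transcript (230 members), rho was 0.78 in NT and 0.74 in N6L cultures, and with that of the last position of codons 0.71 and 0.70. With transcript length, rho was -0.25 in NT and -0.35 in N6L cultures over members and -0.46 and -0.61 over all genes, so that over all genes length stood further from 0 than GC. Genes are not independent replicates, and all values come from the same libraries, so these correlations are descriptions.

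**Figure D4:**
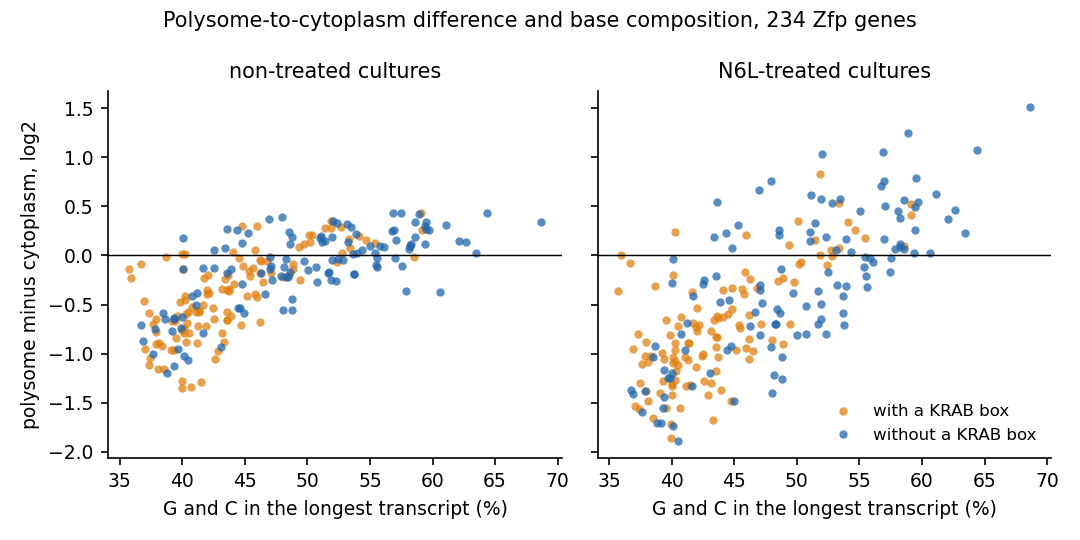
Polysome minus cytoplasm (log2, vertical axis) against the G and C of the longest transcript (%, horizontal axis) for the 234 members in NT cultures (left) and N6L cultures (right), with members with a KRAB box in orange and without it in blue. In both panels points rise from left to right (Spearman's rho 0.76 and 0.74), and GC-poor members without a KRAB box lie as low as KRAB members of the same GC.

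The same order was present in each culture, although its size differed. In the low group the median difference was -0.57, -1.01 and -0.41 in NT cultures 1, 2 and 4 and -0.61, -1.14 and -1.55 in N6L cultures 1, 2 and 3. The ranges of the treatments overlapped, NT culture 2 lying lower than N6L culture 1. In the middle group the medians were -0.18, -0.24 and -0.05 in NT and -0.33, -0.57 and -1.10 in N6L cultures, without overlap. In the high group they lay between -0.03 and 0.19 in NT cultures and between -0.005 and 0.22 in N6L cultures. When each library was corrected for transcript length and GC by an offset, 52 members were lower (22.2%) and 22 higher (9.40%) in N6L polysomes, against 8.40% and 11.7% of all genes in the same fit. The median moved from -0.59 to -0.16, and of the 118 lower members 49 remained called. The corresponding median in NT cultures moved from -0.18 to -0.02. In the cytoplasmic comparison the offset moved the median from 0.44 to 0.21, with 54 members higher (23.1%) and 12 lower (5.13%), against 12.5% and 18.1% of all genes. The offset corrects for length and GC together, and their parts were not told apart. Whether a composition bias of the libraries or of the fractions accounts for the order was not tested.

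**Figure D5:**
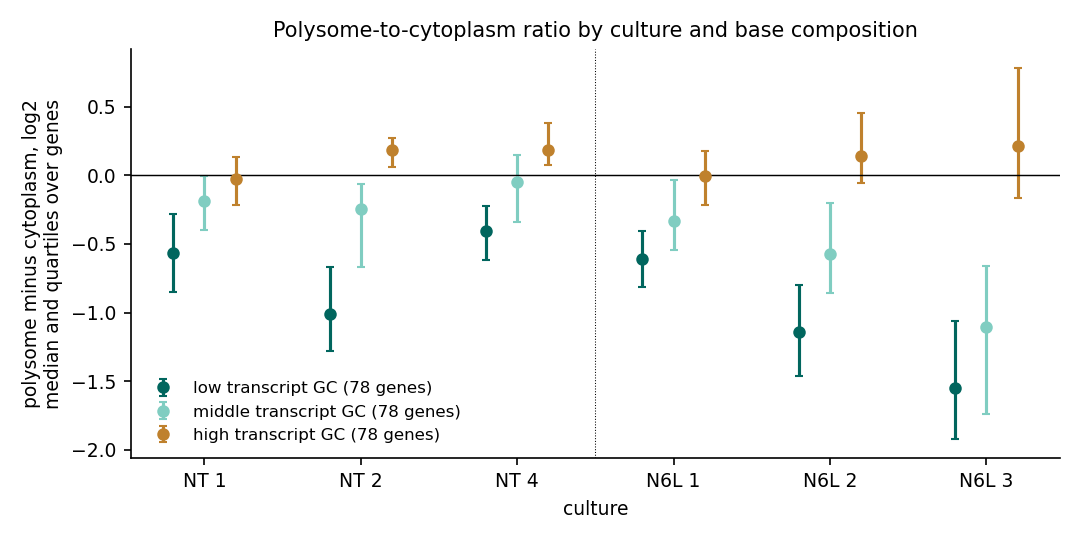
Polysome minus cytoplasm (log2) in each of the 6 cultures for the members of low, middle and high transcript GC (78 members each); points are medians over genes and bars the quartiles. The low group lies below the high group in every culture, by least in NT culture 1, NT culture 4 and N6L culture 1, and the low and middle groups reach their lowest medians, -1.55 and -1.10, in N6L culture 3.

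Members within 500 kb of another listed Zfp gene numbered 144, of which 101 carry a KRAB box, and 59 of the 234 members lie on chromosome 7 and 29 on chromosome 17. In GRCm38 the run of chr17:21008903-22867134 held 12 members, all with a KRAB box, among them Zfp51, Zfp52, Zfp53 and Zfp54. Of these 10 were lower in N6L polysomes than in cytoplasm and 0 higher, with a median of -1.40 and a median transcript GC of 38.2%. Of all genes 20.6% were lower and 18.4% higher in this comparison. The 9 members of chr17:32765496-33631779, 8 of them with a KRAB box, include Zfp871, Zfp955a and Zfp101, and 8 were lower and 1 higher, with a median of -1.003 and a GC of 41.5%. On chromosome 13, the 7 KRAB members of chr13:67387905-67729173 had 5 lower and 0 higher, with a median of -1.03 and a GC of 40.1%. By contrast, the 10 members of chr7:127233061-127885996, 4 of them with a KRAB box and among them Zfp771, Zfp689 and Zfp747, had 0 lower and 4 higher, with a median of 0.22 and a median GC of 53.3%. Over the 9 clusters with at least 5 members, the 5 of lowest median GC (38.2% to 41.5%) had medians between -1.40 and -0.81, and the other 4 (47.1% to 55.0%) had medians between -0.70 and 0.22. With the length and GC offset the members lower numbered 7 of 12 in chr17:21008903-22867134 (1 higher), 2 of 9 in chr17:32765496-33631779 (0 higher) and 1 of 7 in chr13:67387905-67729173, and the 5 members of chr9:20345136-20605409, of which 4 were lower without the offset, had 0 lower and 2 higher with it. In the fit with the offset 8.40% of all genes were lower and 11.7% higher between these fractions. In the cytoplasm 14.5% of all genes rose after N6L. Of the 9 clusters, chr7:29768552-30169750 had 5 of 11 members higher, with a median of 0.75, chr17:32765496-33631779 had 4 of 9 and chr13:67387905-67729173 had 3 of 7. In the other 6 clusters the increases were 2 of 12, 2 of 10, 1 of 7, 2 of 6 and, in the 5 members each of chr7:27731389-28014115 and chr9:20345136-20605409, 0 (edgeR; 1 each at an unadjusted p under 0.05, and 0 by DESeq2). Genes of 1 cluster resemble each other in sequence, so their counts are not independent. Over 10% of the 50-base stretches also occur in other genes for 27 members, 22 of them with a KRAB box, and the treatment of reads with several matches is not given in the sources used here.

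The translational index of the study is the polysome-to-cytoplasm ratio of treated cells divided by that of non-treated cells. The study reported genes with a changed index in both directions, among genes it had first selected as significantly expressed. Here the index is the log2 polysome-to-cytoplasm difference of N6L cultures minus that of NT cultures, tested as 1 contrast over all genes tested. The selection and the test differ, so the counts of the study and those here are not alike. No member was called by edgeR (0 of 234, and 0% of all genes in either direction) or by DESeq2 (0), and the smallest FDR was 0.555. At an unadjusted p under 0.05 (edgeR) were 12 of 234 members, 11 of them lower. Of all 13889 genes 1074 were, 632 of them lower, so such members were not more frequent than such genes, and the lower ones were about as frequent. The count at an unadjusted p was 41 with the replicate block, which pairs the fractions of a lysate, and ran from 4 without NT culture 1 to 35 without N6L culture 1, with 0 called in each. For these fits the counts over all genes at an unadjusted p are not given here. The median index was -0.30 for members, -0.34 with a KRAB box, -0.18 without it and 0.01 for all genes. Without NT culture 4 it was -0.15 and without N6L culture 3 -0.16. All 3 N6L ratios lay below all 3 NT ratios in 40 members (17.1%) and above them in 8 (3.42%), against 14.4% and 15.3% of all genes. As a description, the log2 ratios of Zfp771 were -0.25, 0.59 and 0.59 in NT and 1.07, 1.19 and 1.97 in N6L cultures, with an index of 1.17 ± 0.48. The other highest values without overlap were 0.82 ± 0.40 for Zfp524, 0.68 ± 0.33 for Zfp444, 0.62 ± 0.39 for Zfp593 and 0.49 ± 0.26 for Zfp511. Those of Zfp871 were 0.46, 0.01 and -0.72 and -0.84, -1.27 and -2.04, with an index of -1.33 ± 0.50, the lowest of the members without overlap. It was followed by Zfp407 at -1.10 ± 0.29, Zfp318 at -0.89 ± 0.34, Zfp462 at -0.85 ± 0.36 and Zfp39 at -0.78 ± 0.41. Without the filter on low counts, 2 members passed the limit, Zfp771 with 1.14 (FDR 0.0329) and Zfp871 with -1.37 (FDR 0.0182).

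Members with known roles were grouped by function. Of 3 that act on ribosomes, Zfp593 fell in the cytoplasm (above), while Zfp598 had log2 -0.13 ± 0.17 (SE), FDR 0.579 and Zfp622, the counterpart of a yeast factor of late large-subunit assembly, had log2 -0.06 ± 0.15 (SE), FDR 0.777, neither past the limit. Zfp622 was higher in N6L polysomes than in cytoplasm, with log2 0.54 ± 0.15 (SE), FDR 0.0139, a call lost without any 1 of the N6L cultures, and Zfp598 had 0.26 ± 0.17 there. Of 9 KRAB proteins listed for known targets 7 were members, and 2 rose in the cytoplasm and 0 fell. Zfp809, which silences retroviral DNA at the primer-binding site, had 8.88, 12.3 and 8.46 CPM in NT and 15.8, 22.8 and 20.4 CPM in N6L cytoplasm, with log2 0.99 ± 0.22 (SE), FDR 0.00713. Zfp568, a repressor of a placental Igf2 transcript, had 36.8, 39.7 and 28.6 against 52.0, 56.4 and 53.2 CPM, with log2 0.62 ± 0.18 (SE), FDR 0.0221. Both lost the call without N6L culture 2, and Zfp568 also without NT culture 1 or 4 and with the length and GC offset. The imprint keepers Zfp57 and Zfp445 had cytoplasmic log2 values of -0.30 ± 0.19 and 0.81 ± 0.30 and were not called. In N6L cultures Zfp445, Zfp568, Zfp809 and Zfp932 were lower in polysomes than in cytoplasm, with log2 values of -1.68 ± 0.30, -0.70 ± 0.18, -0.96 ± 0.22 and -0.80 ± 0.27. Zfp568, Zfp809 and Zfp932 did not stay past the limit without N6L culture 3, Zfp568 and Zfp932 without N6L culture 2, and Zfp932 without NT culture 1. With the length and GC offset the value of Zfp568 was 0.037 and Zfp932 was not past the limit.

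Of 13 promoter-binding regulators 12 were members, with a median cytoplasmic change of 0.47, 2 higher and 0 lower. Zfp148, which binds GC-rich promoters, had log2 0.65 ± 0.23 (SE), FDR 0.0490, and Zfp263 had log2 0.87 ± 0.20 (SE), FDR 0.00763. Both lost the call without N6L culture 2, and Zfp148 also without N6L culture 1 or any NT culture and with the length and GC offset. Zfp143, an activator of promoters and of small nuclear RNA genes, had 0.78 ± 0.29, and Zfp281 had 0.63 ± 0.25. In N6L cultures 7 of the 12 were lower in polysomes and 0 higher (4 lower without N6L culture 2 and 4 without N6L culture 3). With the length and GC offset 3 of the 12 were lower, and Zfp24 had 0.13, Zfp148 -0.009 and Zfp322a -0.16, none past the limit. Chromatin and transcription cofactors had 15 members of 20 listed, with a median cytoplasmic change of 0.65. Here 8 rose and 0 fell: Zfp292, Zfp395, Zfp462, Zfp518a, Zfp592, Zfp608, Zfp609 and Zfp644. Zfp644, a partner of the histone methyltransferases Ehmt1 and Ehmt2, had log2 1.09 ± 0.28 (SE), FDR 0.0129, Zfp609, a cofactor of cohesin loading, had log2 0.92 ± 0.24 (SE), FDR 0.0150, and Zfp592, part of a repressor complex, had log2 0.52 ± 0.18 (SE), FDR 0.0438. Zfp292 had 28.6, 35.5 and 22.7 CPM in NT and 43.9, 89.4 and 68.5 CPM in N6L cytoplasm, with log2 1.22 ± 0.25 (SE), FDR 0.00465. Of the 8, the calls of Zfp292 and Zfp395 held without each culture in turn, and 2 were also left without NT culture 4. In N6L cultures 12 of the 15 were lower in polysomes than in cytoplasm and 0 were higher, with 5 lower without N6L culture 2 and 6 without N6L culture 3. With the offset 5 were lower and 1 was higher, and the values of Zfp592 (0.013) and Zfp518a (-0.17) were not past the limit. For these lists of function, the shares of all genes called are the percentages given above, and no list was tested as a set.

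Of 8 members that act on RNA or on the spindle, 1 rose in the cytoplasm, Zfp318 with log2 0.80 ± 0.24 (SE), FDR 0.0233, a call lost without NT culture 1 or 4 or N6L culture 2 and with the length and GC offset. In N6L cultures 4 were lower in polysomes and 0 higher, which were Zfp638 (above), Zfp318 with -1.48 ± 0.24, Zfp106, an RNA-binding protein, with -0.81 ± 0.19, and Zfp326, part of a complex that joins splicing to transcription, with -0.93 ± 0.24. The calls of Zfp106 and Zfp326 were lost without N6L culture 2 or 3, and with the length and GC offset Zfp106 had 0.055, Zfp326 and Zfp638 were not past the limit, and 1 of the 4 calls was left. Zfp207, which helps the mitotic spindle assemble, had 0.22 ± 0.19 in the cytoplasm and -0.41 ± 0.19 between the fractions and was not called in either. In the function lists where edgeR called 0 members lower in the cytoplasm, 0 were lower at an unadjusted p under 0.05 and 0 by DESeq2. Where it called 0 members higher between N6L fractions, 0 were higher at an unadjusted p under 0.05, except 1 promoter-binding regulator, and DESeq2 called 1 promoter-binding regulator higher.

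The partners of KRAB proteins were read from the same fits, and few of them were called in the cytoplasm. Of 31 corepressor and heterochromatin genes 3 rose (9.68%) and 1 fell (3.23%), against 14.5% and 13.8% of all genes, and the difference in shares was not tested. Trim28, which binds the KRAB box, had 429.6 ± 17.9 CPM (SD, n = 3) in NT cytoplasm and 426 ± 81.1 CPM in N6L cytoplasm, with log2 -0.01 ± 0.16 (SE), FDR 0.963. Setdb1 had log2 0.46 ± 0.22 (SE), FDR 0.119. The 3 that rose were Morc3 with log2 0.91 ± 0.28 (SE), FDR 0.0267, Trim24 with log2 0.79 ± 0.25 (SE), FDR 0.0316 and Chd3 with log2 0.52 ± 0.17 (SE), FDR 0.0374, and the 1 that fell was the histone methyltransferase Suv39h2 with log2 -0.60 ± 0.21 (SE), FDR 0.0462. All 4 lost the call without N6L culture 2, NT culture 1 or NT culture 4, and in the fit with the length and GC offset 2 rose and 5 fell. In N6L cultures 14 of the 31 were lower in polysomes than in cytoplasm (45.2%) and 1 was higher (3.23%), against 20.6% and 18.4% of all genes, with a median of -0.56. With the offset 6 were lower and 1 was higher. Without N6L culture 2 the counts were 5 and 0, and without N6L culture 3 they were 8 and 0. The shares of all genes in these fits are given above.

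Other zinc-finger families also had positive medians in the cytoplasm. Of 35 genes of the BTB family (Zbtb), which join fingers to another protein-binding domain, 10 rose after N6L and 0 fell (edgeR; 1 lower at an unadjusted p under 0.05, and 0 by DESeq2), with a median of 0.32, and of 15 genes of the SCAN family (Zscan and Zkscan) 4 rose and 0 fell (edgeR; 0 lower at an unadjusted p under 0.05, and 0 by DESeq2), with a median of 0.40. The shares that rose were 28.6% and 26.7%, against 14.5% of all genes. Without N6L culture 2 the increases numbered 1 and 0, without NT culture 4 they numbered 4 and 3, and with the length and GC offset the BTB median was -0.01. Between the fractions of N6L cultures, 9 BTB genes were lower and 3 higher (2 and 0 with N6L culture 2 left out; 5 and 0 with N6L culture 3 left out), with a median of -0.41 and a median transcript GC of 48.5%. For the SCAN genes the counts were 4 and 1 of 15, with a median of -0.22 and a GC of 48.9%. The lower genes were 25.7% of the BTB and 26.7% of the SCAN genes, near the 20.6% of all genes, and the higher ones were 8.57% and 6.67%, against 18.4%. With the offset 2 BTB genes were lower and 6 higher, with a median of 0.06. The KRAB members, with a GC of 42.7%, had the lowest of these medians, at -0.82, and the difference between families was not tested. The KRAB box was searched for in Zfp genes alone, so BTB or SCAN genes with a box are not told apart.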

How the data were processed

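Cytoplasmic and polysomal RNA from 6 cultures of mPDAC cells was selected with oligo(dT), sequenced with a stranded kit, and demultiplexed with bcl2fastq 2.18.0.12. Per the submitters' processing notes, the authors used STAR and HTSeq 0.5.3 with the build mm10, and they deposited unnormalized counts of reads per gene, in 4 technical replicates for every one of the 12 libraries. The annotation release, strand setting and treatment of reads with several matches are not given in the labels or methods. Technical replicates (chi-square per degree of freedom 1.02 to 1.04) were summed; 3 of N6L culture 2 cytoplasm carry conflicting culture numbers and were left out in an alternative.

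Counts were filtered (filterByExpr, 13889 genes), and edgeR 4.0.16 (R 4.3.3) was run with TMM scaling (glmQLFit and glmQLFTest, 4 group means, Benjamini-Hochberg FDR limit 0.05). The fit was tested on simulated data. CPM values are TMM-scaled; ratios per culture are log2 with a prior count of 2. Library totals were 19519911 counts or more. Counting error was not set against the spread of 3 cultures, and it weighs more in members of few CPM. Exact permutation of 3 against 3 cultures allows no p below 0.1 and was not used.

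Symbols, coordinates and coding sequences came from GENCODE vM21 (GRCm38), which held 50376 of the 50600 genes. KRAB boxes were found in the translated coding sequence by a score matrix with a limit of 20 bits (no member of the 391 genes scored between 12.7 and 43.8), and fingers by the pattern of cysteines and histidines.

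The members, lists and comparisons were chosen with earlier results of these data known. The genes named were, per comparison, the 5 largest increases and decreases past the limit without overlap between groups, the 5 highest levels per length, the genes at the level limit, and genes of the function lists.

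Fractions of a culture come from one lysate and are paired; their deviations from group means correlated by 0.364, 0.452 and 0.645 (NT 1, 2, 4) and by 0.0368, 0.199 and 0.229 (N6L 1, 2, 3). The study's methods name no block, so blocking was an alternative, with other scalings, filters, DESeq2 1.42.0, fewer libraries, other level limits and an offset for length and GC. The functional assays of the study were not analysed here.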

Additional observations from a re-analysis of the deposited data

Results flagged for a closer look

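In 3 members the polysome-to-cytoplasm ratio was above 0 (log2) in every NT culture and below 0 in every N6L culture. Zfp664 had ratios of 0.29, 0.07 and 0.20 in NT cultures 1, 2 and 4 and -0.07, -0.20 and -0.15 in N6L cultures 1, 2 and 3, with an index of -0.32 ± 0.26 (FDR 0.598). Zfp526, which rose in the cytoplasm, had 0.17, 0.48 and 0.70 and -0.27, -0.02 and -0.21, with an index of -0.60 ± 0.36 (FDR 0.555). Zfp383, a KRAB member, had 0.09, 0.36 and 0.65 and -0.18, -0.12 and -0.75, with an index of -0.63 ± 0.42 (FDR 0.562). The index tests the difference between treatments and was not past the limit for any of the 3. In 0 members were the ratios below 0 in every NT culture and above 0 in every N6L culture. No counts over all genes are given for these patterns, so the counts of members are descriptions. The groups hold 3 cultures each, too few for a rule on single samples that stand apart.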

How the results depend on the processing

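The cytoplasmic median stayed positive and the medians of both fraction comparisons and of the index stayed negative in every alternative run; counts of calls moved more. Leaving out 1 culture gave 9 to 90 members called in the cytoplasm (72 with all), 0 to 11 in polysomes (7), 0 to 15 between the fractions of NT cultures (1) and 56 to 142 between those of N6L cultures (138). Fits of only the groups compared gave 112 in the cytoplasm, 0 in polysomes and 10 between NT fractions. Without a filter the counts were 15 in polysomes, 38 between NT fractions and 2 for the index, and with DESeq2 12 and 14 for the first pair. Between NT fractions 0 members were called with RLE size factors, library size alone, at least 10 counts in every library, technical replicate a alone, the length and GC offset or a level limit of 10 CPM.

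The replicate block, with fractions paired by culture, gave 6 between NT fractions. For the treatment comparisons the labels share only numbers 1 and 2, and this block gave 4 in polysomes. The offset gave 21 in polysomes (18 higher and 3 lower) and 74 between N6L fractions, with medians of 0.21 in the cytoplasm, -0.021 between NT and -0.16 between N6L fractions. The replicate block with the offset gave 26 in polysomes (17 higher and 9 lower) and 16 between NT fractions, with medians of 0.17, -0.012 and -0.15. Of the genes named, those between N6L fractions that turned direction with the offset, and with the replicate block and offset, were Zfp568 (0.037 and 0.027), Zfp24 (0.13 and 0.11), Zfp592 (0.013 and 0.012), Zfp451 (0.31 and 0.31), Zfp106 (0.055 and 0.056) and Dnmt3a (0.019 and 0.019). In the cytoplasm Zfp568 turned to -0.000892 with both. The cause was not tested, and 3 cultures per group limit every count.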

Other observations

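Zfp genes under the level limit differed in kind from the members. Of the 157 listed Zfp genes with a mean under 5 CPM, 111 encode a KRAB box, against 116 of the 234 members, and 23 of the 391 had no count in any library. By number of fingers, the members with 0 to 4 fingers had a median cytoplasmic log2 change of 0.23 after N6L (8 higher and 5 lower of 40), those with 5 to 9 fingers 0.35 (19 and 2 of 76), those with 10 to 14 fingers 0.52 (26 and 0 of 73) and those with 15 or more 0.50 (12 and 0 of 45). Between the fractions of N6L cultures the medians were 0.00, -0.35, -0.70 and -0.89 in the same order. Fingers, transcript length, GC and the KRAB box vary together over these genes, and the differences between these classes were not tested.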
